A study of Homo sapiens with 51 samples.

Results

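The nuclear genes of oxidative phosphorylation were followed across all 51 RNA-seq libraries of the human mammary epithelial line HMLE and its TWIST1-overexpressing derivative. Members were taken by symbol: rows of the deposited expression table named NDUFA, NDUFB, NDUFC, NDUFS or NDUFV with a number, UQCR, COX4 to COX8 subunits, or ATP5, without pseudogenes. This gave 73 of the 24033 symbols in the table. By symbol, 36 were counted in complex I, 8 in complex III, 11 in complex IV and 18 in complex V, the ATP synthase. NDUFA4 was placed in complex IV. The rule leaves out complex II, cytochrome c and COX4I1. It takes in ATP5S and ATP5SL, now named DMAC2L and DMAC2, and ATP5L2, a retrotransposed copy of ATP5L. These were counted in complex V by symbol alone, so counts for that complex are not of ATP synthase subunits only.

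In oxidative phosphorylation, complexes I, III and IV pass electrons from NADH to oxygen and pump protons across the inner mitochondrial membrane, and complex V uses the proton gradient to make ATP. Most subunits of these complexes are encoded in the nucleus and imported, and a small core is encoded by mitochondrial DNA. Transcription of the nuclear subunits is classically linked to the factors NRF1, GABPA and YY1, to the receptor ESRRA and to the coactivators PPARGC1A and PPARGC1B, and dividing epithelial cells draw on both this pathway and glycolysis.

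The design crossed the 2 lines with several treatments, in 17 groups of 3 libraries each. HMLE-TWIST1 cells overexpress TWIST1, a transcription factor that drives epithelial-mesenchymal transition, and HMLE cells, labelled wild type, are the immortalised parental line. Knockdown groups received DsiRNA duplexes against SUV39H1 and SUV39H2, the histone methyltransferases that place H3K9 trimethylation, and scramble groups a control duplex, in both lines. Day 2 of these groups is 48 h after transfection, and day 4 adds 48 h in fresh medium. Chaetocin, a fungal product that inhibits SUV39H1 among other enzymes, was given to HMLE-TWIST1 cells at 100, 150, 200 or 500 nM for 48 h, or at 80 nM for 15 h followed by 48 h without drug. DMSO groups of both lines were kept for 48 h (labelled day 2) or for 15 h and then 48 h in DMSO-free medium (labelled day 4). Day 4 and day 2 thus differ in time, medium change and, for DMSO, exposure, which cannot be told apart. The day 4 schedule also differs between duplex and DMSO groups, so their day differences cover unlike intervals. Nothing in the labels says whether the 3 libraries of a group came from separate cultures, so p-values measure the spread between these libraries, which may be technical.

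Each library held 7897060 to 15662385 gene-assigned reads, of which 22351 to 59258, or 0.195 to 0.448%, fell on the 73 genes. The TWIST1 transcript was at 107 to 324 RPKM (reads per kilobase of gene model, scaled to sequencing depth) in HMLE-TWIST1 libraries and at 2.36 to 7.66 RPKM in HMLE libraries. All 7 epithelial markers tested were lower and all 6 mesenchymal markers higher in HMLE-TWIST1 cells in each of 4 pairs of control groups. In the 9 HMLE day 4 libraries the members took 0.195 to 0.266% of reads, against 0.302 to 0.448% in the other 42 libraries. Those 9 libraries also had low composition scaling factors, 0.78 to 0.898 against 0.89 to 1.177 in the others. Counts over all members in the line and day comparisons that involve them are therefore also given relative to library totals. Counts by complex and of other gene lists are not.

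Transcript levels differed widely among subunits that are assembled together, from 0.379 to 103 RPKM with COX6B2 left aside. Averaged over the 17 groups, the median member was at 10.9 RPKM, with medians of 7.39 in complex I, 17.9 in complex III, 18.6 in complex IV and 13.1 in complex V. ATP5B, the catalytic beta subunit of ATP synthase, was highest at 103 RPKM, and ATP5C1, its rotating gamma subunit, followed in that complex at 38.7 RPKM. In complex I the highest were NDUFS4, an accessory subunit of the NADH-oxidising module, at 90.2 RPKM and NDUFB9, of the distal membrane arm, at 64.3 RPKM. In complex IV, COX6C stood at 74.3 and COX7C at 69.4 RPKM, and in complex III UQCRQ at 51.5 and UQCRFS1, the Rieske iron-sulfur protein, at 26.3 RPKM.

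At the low end, NDUFA13 averaged 0.379 and NDUFA11 0.958 RPKM in complex I, UQCR11 2.16 and UQCRB 8.28 RPKM in complex III, COX6B2 0.0857 and COX6A1 2.89 RPKM in complex IV, and ATP5L2 1.00 and ATP5S 3.33 RPKM in complex V. In all, 8 members averaged under 2 RPKM, and COX6B2, a testis-enriched isoform, drew 188 reads over the 51 libraries. Of the 8, 6 share 9.65 to 33.8% of their exon bases with another gene on the same strand. Paralogs were unequal: COX6B1 stood at 57.1 RPKM beside COX6B2, ATP5L at 17.2 RPKM beside ATP5L2, and the subunit c genes at 11.2 RPKM for ATP5G2, 5.56 for ATP5G3 and 3.48 for ATP5G1. Many members have processed pseudogenes, and how the counting treated reads shared with them is not given in the sources used here, so these levels are uncertain to that extent.

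**Figure D1:**
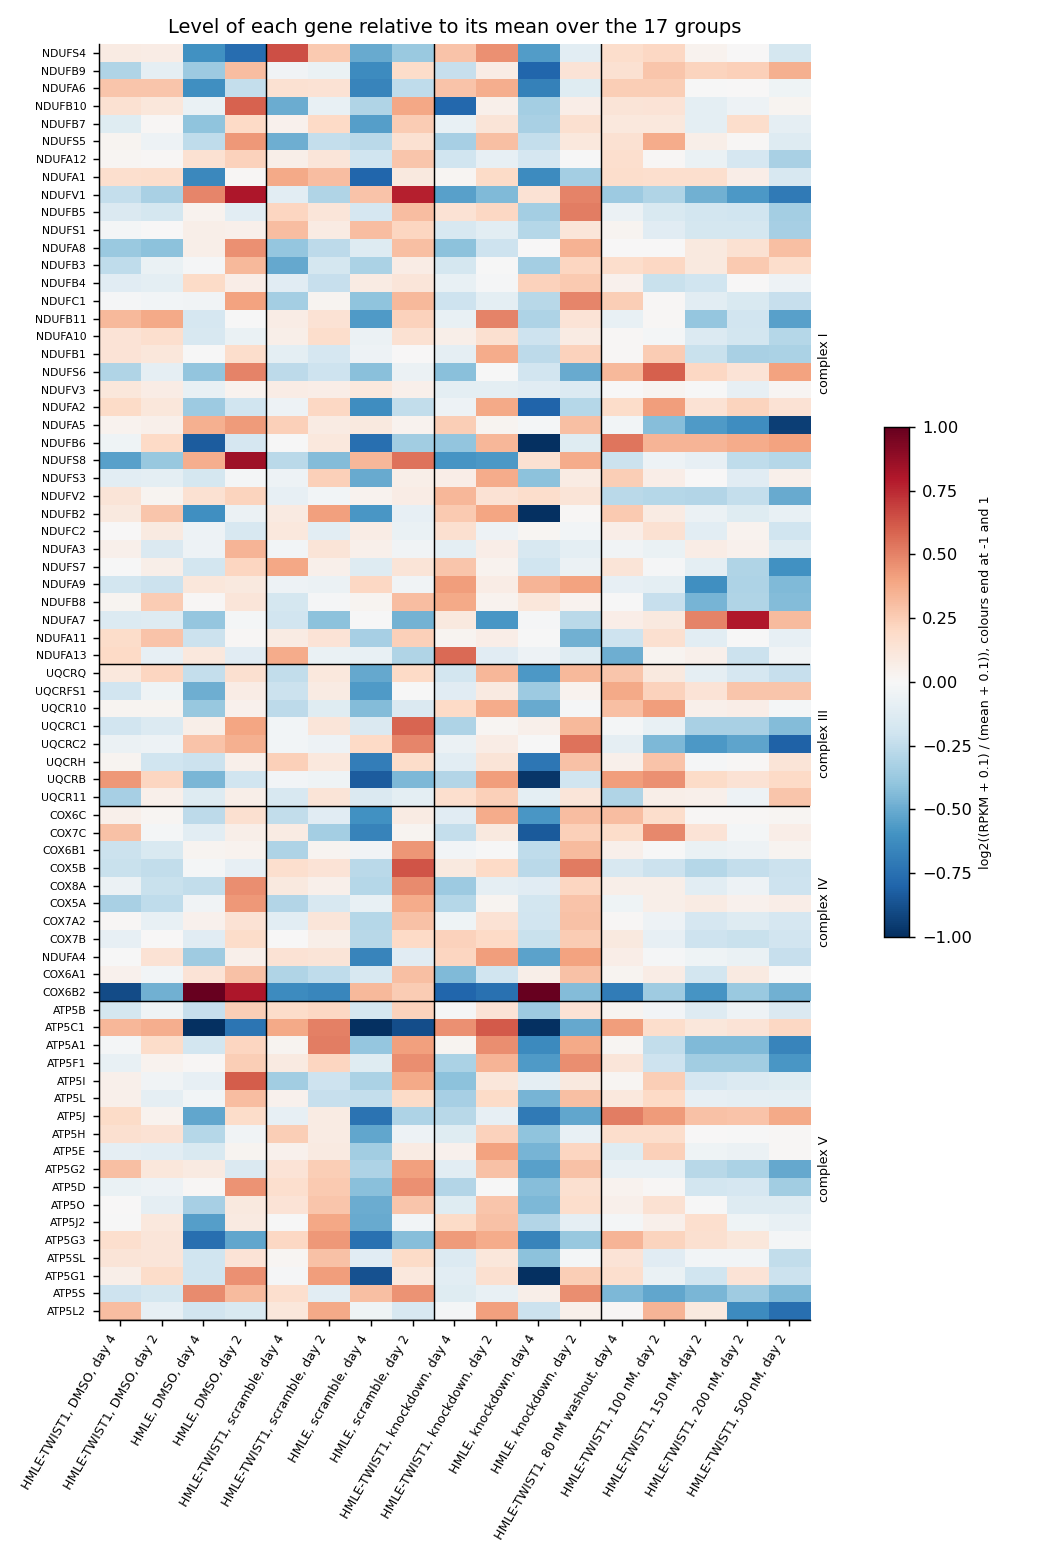
Level of 72 of the 73 genes (rows, grouped by complex and ordered by mean level) in each of the 17 groups (columns), as the log2 ratio of the group's mean RPKM to the gene's mean over all groups, with 0.1 RPKM added to both; colours end at -1 and 1. The HMLE day 4 columns are blue for most rows, and single rows such as ATP5C1, NDUFS8 and NDUFV1 separate the lines.

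Promoter windows of RefSeq (GRCh38.p14), from 250 bases before to 50 bases after each gene's start, were matched for 59 members by symbol. On either strand, the NRF1 motif (GCGCA and GCGC with any base between them) lay in 13 of the 59 (22.0%), against 6.28% of 27305 windows of all genes. The YY1 motif AANATGGCG lay in 15 (25.4%, against 3.37%), the ETS motif CCGGAAG bound by factors such as GABPA in 16 (27.1%, against 10.7%), and the CCAAT box in 21 (35.6%, against 35.7%). Of the 27 members lower in HMLE cells at day 4 under every treatment, described further on, 20 had a window: 5 held the NRF1 motif, 2 YY1, 4 ETS and 4 CCAAT, against 8, 13, 12 and 17 of the other 39. The windows of 5 genes are shown because single-library values are given for them among the results. These values are of the line difference (ATP5C1 and NDUFV1) or the day difference in HMLE cells (UQCRFS1, ATP5J and ATP5A1) under some treatments. Of the windows, 3 have a match and 2 have none in the stretch printed. Each is the 250 bases upstream of the start, 5′ to 3′ on the gene's strand, with motif matches in capitals.
ATP5C1, chr10:7787927-7788176, plus strand, NRF1 match beginning at base -22: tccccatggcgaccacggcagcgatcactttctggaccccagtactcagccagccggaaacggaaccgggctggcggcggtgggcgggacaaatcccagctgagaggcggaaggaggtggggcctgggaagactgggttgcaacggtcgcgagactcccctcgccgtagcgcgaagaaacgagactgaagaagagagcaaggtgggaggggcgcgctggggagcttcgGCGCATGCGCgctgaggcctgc
UQCRFS1, chr19:29213152-29213401, minus strand, NRF1 match beginning at base -31: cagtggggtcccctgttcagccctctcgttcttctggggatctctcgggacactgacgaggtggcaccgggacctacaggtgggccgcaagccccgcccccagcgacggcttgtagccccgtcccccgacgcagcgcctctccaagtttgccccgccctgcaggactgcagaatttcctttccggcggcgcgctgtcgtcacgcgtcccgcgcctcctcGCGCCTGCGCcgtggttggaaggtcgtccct
ATP5J, chr21:25735055-25735304, minus strand, CCAAT match at -240, YY1 match at -57 and ETS match at -30: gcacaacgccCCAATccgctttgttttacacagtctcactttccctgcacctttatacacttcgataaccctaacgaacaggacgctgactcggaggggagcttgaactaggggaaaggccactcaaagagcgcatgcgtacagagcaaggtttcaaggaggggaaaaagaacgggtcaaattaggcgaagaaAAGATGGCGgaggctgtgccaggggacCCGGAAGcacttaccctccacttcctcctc
NDUFV1, chr11:67606686-67606935, plus strand, no match: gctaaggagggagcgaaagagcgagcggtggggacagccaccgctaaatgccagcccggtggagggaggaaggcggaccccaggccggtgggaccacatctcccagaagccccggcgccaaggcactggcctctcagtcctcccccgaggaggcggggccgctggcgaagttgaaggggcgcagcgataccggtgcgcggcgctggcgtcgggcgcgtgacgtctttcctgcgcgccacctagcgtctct
ATP5A1, chr18:46104228-46104477, minus strand, no match: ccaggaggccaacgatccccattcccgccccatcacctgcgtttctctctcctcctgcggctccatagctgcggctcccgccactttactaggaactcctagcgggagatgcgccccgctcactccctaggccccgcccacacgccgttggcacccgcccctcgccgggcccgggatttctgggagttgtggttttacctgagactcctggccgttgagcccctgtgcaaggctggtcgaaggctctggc

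The summed level of the 73 genes was lowest on average in HMLE cells at day 4 under all 3 treatments. The remaining groups averaged 1231 (500 nM chaetocin) to 1502 RPKM, and single libraries of 150, 200 and 500 nM were as low as 1116, 1139 and 1108 RPKM. It was 1305 ± 93.2 RPKM in DMSO HMLE-TWIST1 cells at day 4 and 1314 ± 68.9 at day 2, and 1137 ± 30.9 in DMSO HMLE cells at day 4 and 1425 ± 32.5 at day 2 (SD, n = 3 throughout). With the scramble duplex it was 1345 ± 31.8 and 1377 ± 13.4 RPKM in HMLE-TWIST1 cells at day 4 and day 2, and 1014 ± 14 and 1467 ± 51.1 RPKM in HMLE cells at day 4 and day 2. With the SUV39H1/H2 duplexes the same order gave 1251 ± 67.3 and 1502 ± 106 RPKM in HMLE-TWIST1 cells, and 971.8 ± 17.8 and 1469 ± 39.3 RPKM in HMLE cells. Day 4 and day 2 did not overlap in HMLE cells under any treatment: 1119 to 1173 against 1403 to 1462 RPKM with DMSO, 1000 to 1028 against 1436 to 1526 RPKM with scramble, and 956.7 to 991.4 against 1433 to 1511 RPKM with knockdown. In HMLE-TWIST1 cells they overlapped with DMSO, but not with scramble (1308 to 1364 against 1367 to 1392 RPKM) or knockdown (1202 to 1328 against 1414 to 1619 RPKM). This sum is weighted to the few abundant subunits, and the gene-by-gene tests follow.

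**Figure D2:**
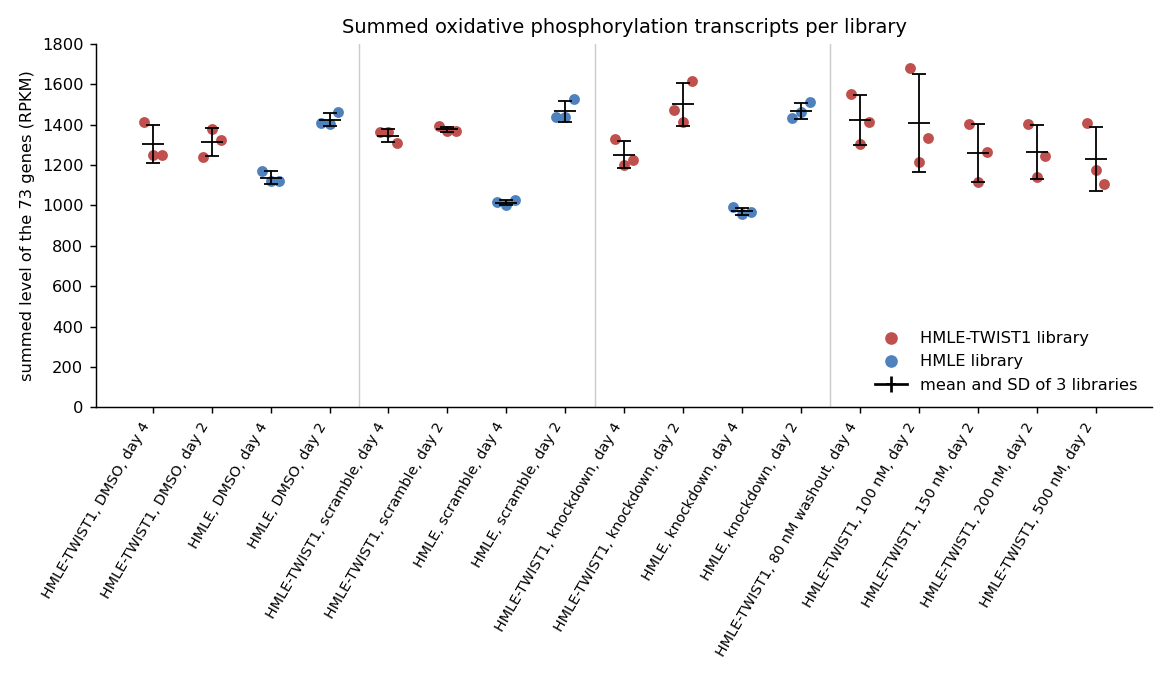
Summed RPKM of the 73 genes in each library (points; red, HMLE-TWIST1; blue, HMLE) with the mean and SD of each group of 3 (black). The HMLE day 4 groups, at 971.8 to 1137 RPKM on average, lie below their day 2 groups at 1425 to 1469 RPKM.

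In HMLE cells, oxidative phosphorylation transcripts fell at day 4 relative to day 2 in every complex. With DMSO, 38 of 73 members were lower and 0 higher at day 4 by limma with Benjamini-Hochberg adjustment at 0.05, against 16% of all genes lower and 19.2% higher. With scramble 49 were lower and 0 higher (20.3% and 21.7% of all genes), and with knockdown 49 were lower and 2 higher (20.7% and 26.4%). The median member changed by -0.30, -0.44 and -0.41 on the log2 scale, against 0.03, 0.01 and 0.05 for the median gene. These 3 comparisons share no library. In all 3 of them 27 members were lower, 37% of 73 against 7.38% of all genes, and 0 were higher, against 9.38% of all genes. Relative to library totals, which moved the median gene by -0.15, -0.13 and -0.17, 47, 56 and 55 members were lower and 0, 0 and 1 higher.

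In complex III, 4 of 8 genes were lower at day 4 with DMSO, 6 with scramble and 7 with knockdown. UQCRFS1, whose iron-sulfur cluster takes electrons from ubiquinol, had 18.3, 19.3 and 18.4 RPKM at day 4, against 28.2, 27.3 and 27.7 RPKM at day 2. Its log2 change was -0.57 (SE 0.07, limma adjusted p = 7.1e-06), and the groups did not overlap. With scramble, UQCRFS1 had 20.2, 14.1 and 18.9 RPKM at day 4, against 25.6, 26.0 and 27.2 RPKM at day 2, again without overlap. UQCRQ, a small subunit of the same complex, had 41.2, 48.2 and 41.4 RPKM at day 4, against 60.5, 55.8 and 56.8 RPKM at day 2 with DMSO (log2 change -0.41). UQCRH, the hinge protein beside cytochrome c1, had 9.38, 8.76 and 8.88 RPKM at day 4, against 17, 15.3 and 17.4 RPKM at day 2 with scramble (-0.87, SE 0.10, limma adjusted p = 2.3e-08). UQCRH did not pass as lower under every treatment.

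In ATP synthase, genes of the catalytic head, the central stalk and the peripheral stalk were lower at day 4. ATP5B had 85.6, 89.5 and 88.1 RPKM at day 4, against 121, 110 and 134 RPKM at day 2 with DMSO (log2 change -0.47, SE 0.08, limma adjusted p = 9.3e-05). ATP5A1, the alpha subunit, had 25, 24.6 and 23.7 RPKM at day 4, against 37.9, 46.1 and 43.3 RPKM at day 2 with scramble (-0.79, SE 0.07). With knockdown ATP5A1 had 21.9, 18.1 and 21.5 RPKM at day 4, against 41.8, 38.6 and 44.4 RPKM at day 2 (-1.02). All 3 day 4 libraries lay below all 3 day 2 libraries in each of these. In the stalks, ATP5C1 had 13.7, 12.2 and 14.8 RPKM at day 4, against 26.8, 27 and 27.7 RPKM at day 2 with knockdown (-1.0), and ATP5J, coupling factor 6, had 12, 10.4 and 11.1 RPKM at day 4, against 17, 19.1 and 18.8 RPKM at day 2 with DMSO (-0.71, SE 0.12). ATP5J did not pass as lower under every treatment. ATP5F1, subunit b of the peripheral stalk, changed by -1.05 with knockdown. By count, 14, 16 and 14 of 18 complex V genes were lower with DMSO, scramble and knockdown.

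Complex I and complex IV followed, with differences between treatments. In complex I, 15, 18 and 20 of 36 genes were lower with DMSO, scramble and knockdown, and in complex IV 5, 9 and 8 of 11. The genes lower under every treatment included NDUFV1, which forms the NADH site of complex I, NDUFA8, NDUFB2, NDUFB3, NDUFB7, NDUFB9, NDUFB10 and NDUFC1, and in complex IV COX5A, COX6C, COX7B and NDUFA4. COX5B, a subunit on the matrix side of cytochrome oxidase, had 37.9, 36.7 and 37.5 RPKM at day 4, against 63.8, 71.1 and 74.1 RPKM at day 2 with scramble (log2 change -0.89, SE 0.08, limma adjusted p = 1.1e-09). With DMSO, COX5B had 41.9, 43.6 and 48.2 RPKM at day 4, against 44.4, 39.7 and 43.8 RPKM at day 2, and the groups overlapped. ATP5G2 had 8.95, 8.87 and 9.2 RPKM at day 4, against 13.6, 16 and 15.2 RPKM at day 2 with scramble (-0.72). With DMSO its direction was the opposite, with 13.2, 11.2 and 11.4 RPKM at day 4, against 10.6, 9.56 and 10.0 RPKM at day 2 and no overlap, but it did not pass (0.24, SE 0.10). Whether the treatments differ in these genes was not tested. The members higher at day 4 with knockdown were COX6B2, from 45 reads at day 4 and 6 at day 2 over the group, and NDUFA11 (0.52), whose call was lost under 5 of its alternatives.

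**Figure D3:**
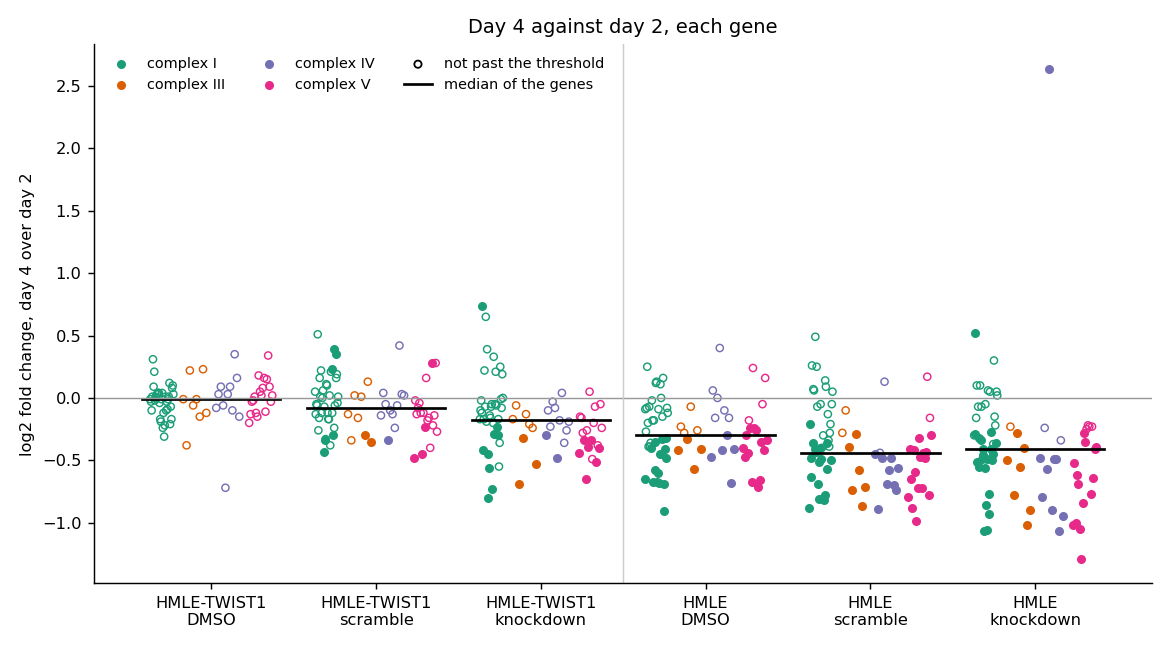
Log2 fold change of each gene at day 4 over day 2 (y axis) for each line and treatment (x axis), coloured by complex; filled points passed the adjusted threshold of 0.05 and the black bar is the median of the genes. The medians are -0.30, -0.44 and -0.41 in HMLE cells and -0.01, -0.08 and -0.18 in HMLE-TWIST1 cells.

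HMLE-TWIST1 cells showed a smaller day difference. With DMSO, 0 of 73 members passed the threshold in either direction by limma, 1 had an unadjusted p under 0.05, and 0.256% of all genes were higher and 0.349% lower, so few genes of any kind changed. With scramble 4 members were higher and 9 lower (13.7% and 14.7% of all genes), and with knockdown 1 was higher and 20 lower (14.3% and 13.7%). ATP5A1 fell in both duplex comparisons: 32.8, 31.3 and 33.8 RPKM at day 4, against 46.3, 46.5 and 43.9 RPKM at day 2 with scramble (log2 change -0.48), and 31.9, 31.9 and 34.3 RPKM at day 4, against 42.3, 45.1 and 45.5 RPKM at day 2 with knockdown (-0.44). NDUFS4 was higher at day 4 with scramble, at 139, 142 and 143 RPKM against 112, 106 and 107 RPKM (0.39, SE 0.07), as was NDUFS1 (0.23). Relative to library totals the scramble split became 8 higher and 3 lower, and the knockdown split 4 higher and 13 lower. Without scramble day 2 replicate 1 or replicate 2 the scramble count was 6 or 7 in place of 13.

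The day effect itself was compared between the lines as an interaction. It was higher (less negative) in HMLE-TWIST1 than in HMLE cells for 10 of 73 members with DMSO (8.9% of all genes), 34 with scramble (16.5%) and 25 with knockdown (15.2%), and lower for 0, 0 and 1 (10.5%, 17.3% and 17% of all genes). The median member differed by 0.29, 0.34 and 0.27 on the log2 scale. Scaling to library totals moved the median gene by 0.18, 0.19 and 0.26 and gave 34, 46 and 45 members higher and 0, 0 and 1 lower. ATP5B, COX6C, NDUFV1 and UQCRH differed under all 3 treatments, which is 5.48% of the members against 3.89% of all genes. ATP5J differed by 0.87 (SE 0.17, limma adjusted p = 9.2e-04) with DMSO, where HMLE-TWIST1 cells had 20.5, 16.8 and 17.9 RPKM at day 4, against 14, 19.2 and 16.4 RPKM at day 2. COX5B differed by 0.93 (SE 0.12, limma adjusted p = 4.5e-07) with scramble, where HMLE-TWIST1 cells had 47.6, 53.3 and 51.5 RPKM at day 4, against 55.3, 43.4 and 50.3 RPKM at day 2. In the HMLE-TWIST1 libraries day 4 and day 2 overlapped for both genes. The DMSO count was 4 without HMLE DMSO day 2 replicate 3 and 4 without HMLE-TWIST1 DMSO day 4 replicate 1.

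Other genes moved together with the fall in HMLE cells at day 4. MKI67, a proliferation marker, had 19.0, 26.5 and 20.8 RPKM at day 4, against 113, 117 and 120 RPKM at day 2 with DMSO, and 7.26, 7.03 and 6.65 RPKM at day 4, against 39.2, 36.9 and 37.9 RPKM at day 2 with scramble. CDKN1A, which encodes the cell-cycle inhibitor p21, had 223, 226 and 195 RPKM at day 4, against 83.3, 59.4 and 47.0 RPKM at day 2 with DMSO. Both genes were looked up after their values were known. Their part in the fall of the members was not tested, and in bulk RNA fewer cells of a type and less RNA per cell cannot be told apart. In HMLE-TWIST1 cells the log2 change of MKI67 was 0.05 with DMSO, which did not pass, -0.31 with scramble and -0.42 with knockdown.

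Most other mitochondrial gene lists, and glycolysis, also had more genes lower than higher in HMLE cells at day 4, where 16%, 20.3% and 20.7% of all genes were lower with DMSO, scramble and knockdown and 19.2%, 21.7% and 26.4% higher. Of 74 mitochondrial ribosomal proteins, 43 were lower and 0 higher with DMSO, 38 and 2 with scramble, and 45 and 2 with knockdown. Of 17 genes of protein import and the outer membrane, 13, 13 and 16 were lower and 2, 0 and 0 higher. Of 13 complex I assembly factors 5, 3 and 5 were lower and 0 higher, and of 26 assembly factors of complexes III, IV and V 13, 10 and 13 were lower and 0, 3 and 2 higher. Complex II had 1, 3 and 3 of 4 genes lower, and the tricarboxylic acid cycle 7, 12 and 11 of 17 lower and 1, 1 and 2 higher. Of 21 genes of glycolysis and lactate, 9, 21 and 16 were lower and 3, 0 and 1 higher. Cytosolic ribosomal proteins differed between treatments, with 1 of 78 lower and 15 higher with DMSO but 66 lower and 1 higher with either duplex. Of 16 regulators 6, 5 and 4 were lower and 0, 4 and 3 higher. Among them, the coactivator PPARGC1B changed by -0.96, -1.38 and -1.21 on the log2 scale and the mitochondrial transcription factor TFAM by -0.44, -0.27 and -0.61, while NRF1 and ESRRA did not pass. Cytochrome c1 (CYC1) changed by -0.53, -0.78 and -0.45 and cytochrome c (CYCS) by -0.62, -0.37 and -0.65.

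Between the lines at matched treatment and day, members moved in both directions. With DMSO at day 2, 10 were higher and 23 lower in HMLE-TWIST1 than in HMLE cells (30.3% and 29.7% of all genes), and at day 4, 21 were higher and 10 lower (34.4% and 32%). With scramble at day 2, 11 were higher and 19 lower (33.6% and 34.8%), and at day 4, 36 were higher and 7 lower (36.9% and 37.1%). The median member differed by -0.15, 0.12, -0.10 and 0.27 in that order, against 0.00, 0.04, 0.00 and 0.01 for the median gene. Relative to library totals, which moved the median gene by 0.18, 0.15 and 0.37 in the last 3 pairs, the splits became 34 higher and 4 lower, 20 and 10, and 53 and 2, and the scramble day 2 median turned positive (0.06). Without HMLE DMSO day 2 replicate 3, 20 members passed at DMSO day 2 in place of 33. These 4 pairs share no library. Of 72 members tested in all of them, 6 were higher in each (8.33%, against 20.1% of all genes) and 4 lower in each (5.56%, against 21.6%).

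ATP5C1, the gamma subunit that couples rotation to catalysis, had the largest positive difference of all members in each pair. It had 52.6, 43.7 and 53.3 RPKM in HMLE-TWIST1 cells, against 22.0, 24.4 and 23.5 RPKM in HMLE cells with DMSO at day 2, and 45.2, 53.6 and 51.9 RPKM against 14.2, 12.3 and 13.5 RPKM with scramble at day 4. The log2 differences were 1.09, 1.36, 1.39 and 1.91 in the 4 pairs (SE 0.09, 0.09, 0.06 and 0.09), and no libraries of the lines overlapped. NDUFS4 had 139, 142 and 143 RPKM in HMLE-TWIST1 cells, against 67.7, 58.5 and 64.7 RPKM in HMLE cells with scramble at day 4 (0.84, 0.68, 0.63 and 1.15 in the 4 pairs). ATP5G3, one of the genes for subunit c of the rotor, had 6.47, 5.35 and 6.3 RPKM in HMLE-TWIST1 cells, against 3.93, 3.69 and 3.93 RPKM in HMLE cells with DMSO at day 2 (0.64, 0.94, 0.87 and 0.97). The remaining genes higher in every pair were the complex I accessory subunits NDUFA6 (0.50, 0.90, 0.40 and 0.82), NDUFB2 (0.34, 0.74, 0.50 and 0.67) and NDUFB6 (0.36, 0.79, 0.46 and 0.74).

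The members lower in HMLE-TWIST1 cells in every pair included 2 electron-transfer subunits of complex I. NDUFV1, which binds NADH and FMN, had 13.3, 13.6 and 13.7 RPKM in HMLE-TWIST1 cells, against 29.8, 27.2 and 32.2 RPKM in HMLE cells with DMSO at day 2, and 16.9, 15.3 and 14.8 RPKM against 19.5, 22.6 and 19.8 RPKM with scramble at day 4. Its log2 differences were -1.13, -0.73, -1.08 and -0.39. NDUFS8, an iron-sulfur subunit next to the quinone site, had 4.26, 3.36 and 3.47 RPKM in HMLE-TWIST1 cells, against 8.57, 8.9 and 8.78 RPKM in HMLE cells with DMSO at day 2 (-1.24, -0.93, -0.98 and -0.61). The lines did not overlap in these libraries. NDUFA8 differed by -0.87, -0.44, -0.57 and -0.27. UQCRC2, a core protein of complex III, had 17, 16.6 and 16.1 RPKM in HMLE-TWIST1 cells, against 23.5, 24.4 and 24.1 RPKM in HMLE cells with scramble at day 2 (-0.41, -0.34, -0.54 and -0.23). Scaled to library totals, NDUFS8 alone of these 4 passed as lower in every pair: with scramble at day 4 NDUFV1 differed by -0.03, NDUFA8 by 0.10 and UQCRC2 by 0.14, and with DMSO at day 4 NDUFA8 and UQCRC2 did not pass. Of 16 regulators of mitochondrial biogenesis, 4, 4, 6 and 10 were higher and 5, 3, 4 and 3 lower in the 4 pairs, with medians of -0.13, 0.03, 0.21 and 0.34. One of them, the receptor ESRRA, was lower in each pair, at 2.72, 3.01 and 2.86 RPKM against 12, 11.3 and 11.1 RPKM with DMSO at day 2 (log2 differences -1.99, -2.01, -2.30 and -1.91).

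**Figure D4:**
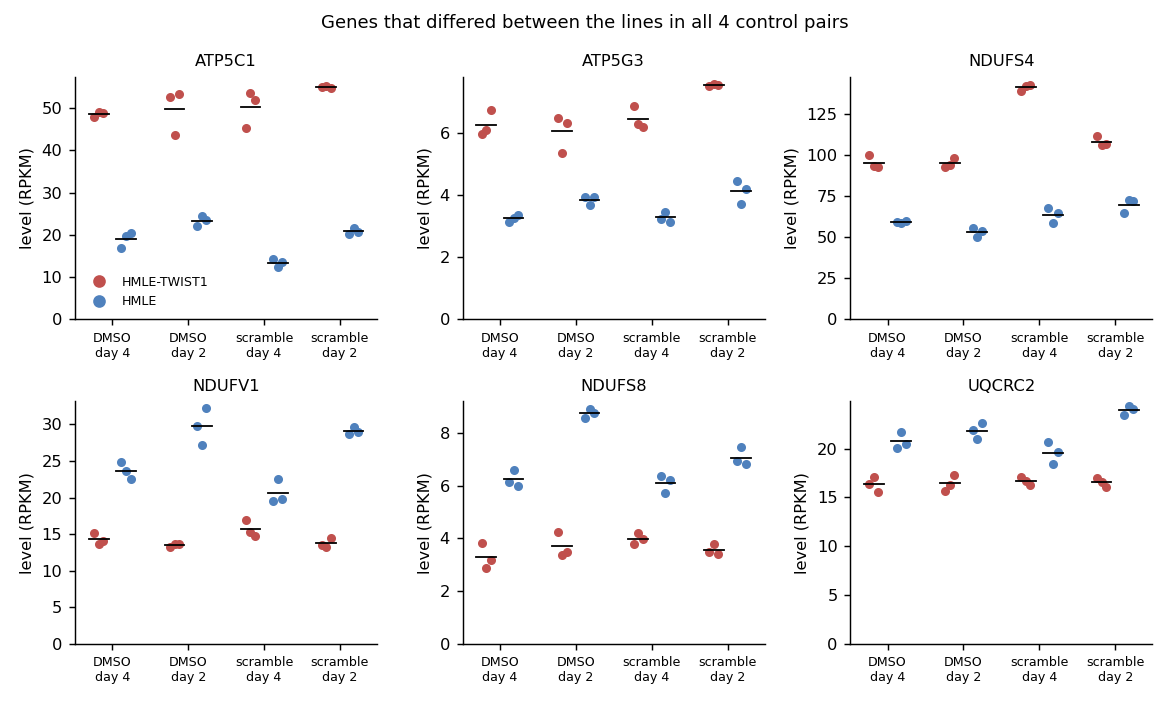
RPKM of 6 genes that differed between the lines in all 4 control pairs, by treatment and day; each point is a library (red, HMLE-TWIST1; blue, HMLE) and the black bar the mean of 3. ATP5C1, ATP5G3 and NDUFS4 are higher and NDUFV1, NDUFS8 and UQCRC2 lower in HMLE-TWIST1 cells.

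Neighbouring genes on the chromosome moved with some of these members. On the short arm of chromosome 10, which carries ATP5C1, 110 of 141 genes tested had a log2 difference above 0 (HMLE-TWIST1 over HMLE, DMSO day 2), whether or not they passed, with a median of 1.09, against 0.11 on the long arm and -0.01 over all placed genes. The medians of that arm in the other pairs were 1.09, 1.15 and 1.12. Over up to 10 of the nearest genes on each side, the median at ATP5C1 was 0.48 to 1.02 over the 4 pairs, with 11 to 15 of 20 above 0. For ATP5G3, on chromosome 2, it was 1.03 to 1.31, and for NDUFS8 and NDUFV1, both on chromosome 11, -1.03 to -1.17 and -0.93 to -1.33. NDUFA8, on chromosome 9, had neighbours at -0.67 to -0.81. The neighbours of NDUFS4 (-0.07 to 0.42) and NDUFA6 (0.09 to 0.34) moved less. Those of UQCRC2 lay at -0.09 to -0.30, where the gene itself differed by -0.23 to -0.54. With scramble at day 4 they were at -0.30, against -0.23 for UQCRC2. The neighbours of NDUFB2 (-0.36 to 0.05) and NDUFB6 (-0.47 to 0.08) lay near 0 or below it. Gene position came from a GRCh38 annotation matched by symbol, copy number was not measured, and the part of position in the line difference was not tested. MKI67 differed between the lines by -0.06, which did not pass, and by 2.40, 1.71 and 3.84 in the other pairs, and its part was not tested either.

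After 48 h of chaetocin, a minority of members differed from DMSO in HMLE-TWIST1 cells. Against DMSO at day 2, the 100 nM libraries had 0 members higher and 2 lower (12.5% and 11.3% of all genes). The 150 nM libraries had 1 higher and 10 lower (18.5% and 15.8%), the 200 nM libraries 3 and 10 (21.8% and 18.1%), and the 500 nM libraries 3 and 18 (27.2% and 23.6%). At every dose the share of members called, in either direction, was below or close to that of all genes. The median member differed by 0.04, -0.09, -0.11 and -0.14 in order of dose, against 0.02, 0.04, 0.04 and 0.04 for the median gene. The 4 doses share their DMSO libraries. The dose libraries were processed by the authors apart from the DMSO libraries, so processing and treatment cannot be told apart. Relative to library totals the median gene moved by 0.14, 0.17, 0.19 and 0.20, the splits became 3 higher and 0 lower, 6 and 4, 6 and 4, and 7 and 9, and the member medians at 150, 200 and 500 nM turned positive (0.10, 0.07 and 0.06).

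NDUFA5, an accessory subunit of the quinone module of complex I, had 5.23, 5.57 and 5.32 RPKM with DMSO, 3.92, 3.51 and 4.11 with 100 nM, 3.49, 3.32 and 3.56 with 150 nM, 3.48, 3.09 and 3.43 with 200 nM, and 3.39, 2.33 and 2.24 with 500 nM. Every chaetocin library lay below every DMSO library, and at 500 nM the log2 difference was -1.04 (SE 0.12, limma adjusted p = 5.3e-06). UQCRC2 had 15.7, 16.3 and 17.3 RPKM with DMSO, 12.2, 12.5 and 12.9 with 100 nM, 9.16, 11.5 and 13.5 with 150 nM, 11.7, 10.6 and 13.2 with 200 nM, and 10.0, 9.52 and 9.53 with 500 nM (-0.76, SE 0.12, limma adjusted p = 4.6e-05). ATP5A1 had 39.4, 31.1 and 38.4 RPKM with DMSO, 32, 24.5 and 24.1 with 100 nM, 26.1, 21.4 and 23.1 with 150 nM, 26.4, 20.7 and 23.7 with 200 nM, and 25.8, 18.3 and 16.4 with 500 nM (-0.87, SE 0.16, limma adjusted p = 2.5e-04). For ATP5A1 the 100 nM libraries overlapped DMSO and those at 150 nM and above did not. At 500 nM, ATP5F1 also fell (-0.64), with 11 of 36 complex I genes, 2 of 8 in complex III, 1 of 11 in complex IV and 4 of 18 in complex V lower in all.

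A few members rose. NDUFA8, a cysteine-rich accessory subunit of complex I, had 9.06, 9.06 and 9.42 RPKM with DMSO, 15.9, 10.9 and 10.2 with 100 nM, 14.7, 12.6 and 12.2 with 150 nM, 17.1, 14.2 and 9.29 with 200 nM, and 14.9, 16.8 and 13.6 with 500 nM. At 500 nM its groups did not overlap, and the log2 difference was 0.71 (SE 0.19, limma adjusted p = 0.0053). UQCRFS1 had 25.6, 24.3 and 26.9 RPKM with DMSO, 35.0, 28.2 and 29.4 with 100 nM, 33.6, 27 and 26.3 with 150 nM, 32.2, 32.5 and 30.9 with 200 nM, and 32.4, 32.2 and 31.0 with 500 nM (0.32, SE 0.10, limma adjusted p = 0.016). NDUFB9 was the third gene higher at 500 nM (0.44, SE 0.17). NDUFA7, which averaged 0.991 RPKM over the 17 groups, rose at 200 nM (0.94), a call lost without DMSO replicate 1. The UQCRFS1 call at 500 nM was lost without DMSO replicate 2, and that of NDUFB9 without DMSO replicate 1 or 3 or 500 nM replicate 1 or 2.

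The dose libraries were uneven among themselves. Replicate 1 had the highest summed level at every dose, at 1681, 1402, 1405 and 1409 RPKM from 100 to 500 nM, against 1108 to 1336 RPKM in the other 8 dose libraries. Between 500 and 100 nM, which were processed together, 0 members were higher and 2 lower (5.47% and 3.77% of all genes): NDUFS7, an iron-sulfur subunit of complex I (-0.63), and NDUFA5 (-0.55). Of 71 members tested, 59 had a difference below 0, with a median of -0.23, against 0.01 for the median gene. Same-numbered dose libraries deviated together, and with replicate number as a block 22 members were lower and 0 higher, against 16% and 18.2% of all genes in that fit. Unblocked, the count was 5 without 500 nM replicate 1 and 0 without any other of the 6 libraries. Leaving out DMSO replicate 3 left 1 member at 100 nM. At 150 nM the count of 11 became 7 without DMSO replicate 1 or 3 and 6 without 150 nM replicate 2, and at 200 nM the count of 13 became 8 without DMSO replicate 1 or 200 nM replicate 2. Against DMSO at 500 nM, where 27.2% of all genes were higher and 23.6% lower, related lists went both ways: 9 of 16 biogenesis regulators were higher and 2 lower, 7 of 17 import and outer membrane genes were higher and 1 lower, 19 of 74 mitochondrial ribosomal proteins higher and 8 lower, 3 of 17 tricarboxylic acid cycle genes higher and 9 lower, and 2 of 21 glycolysis genes higher and 11 lower.

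**Figure D5:**
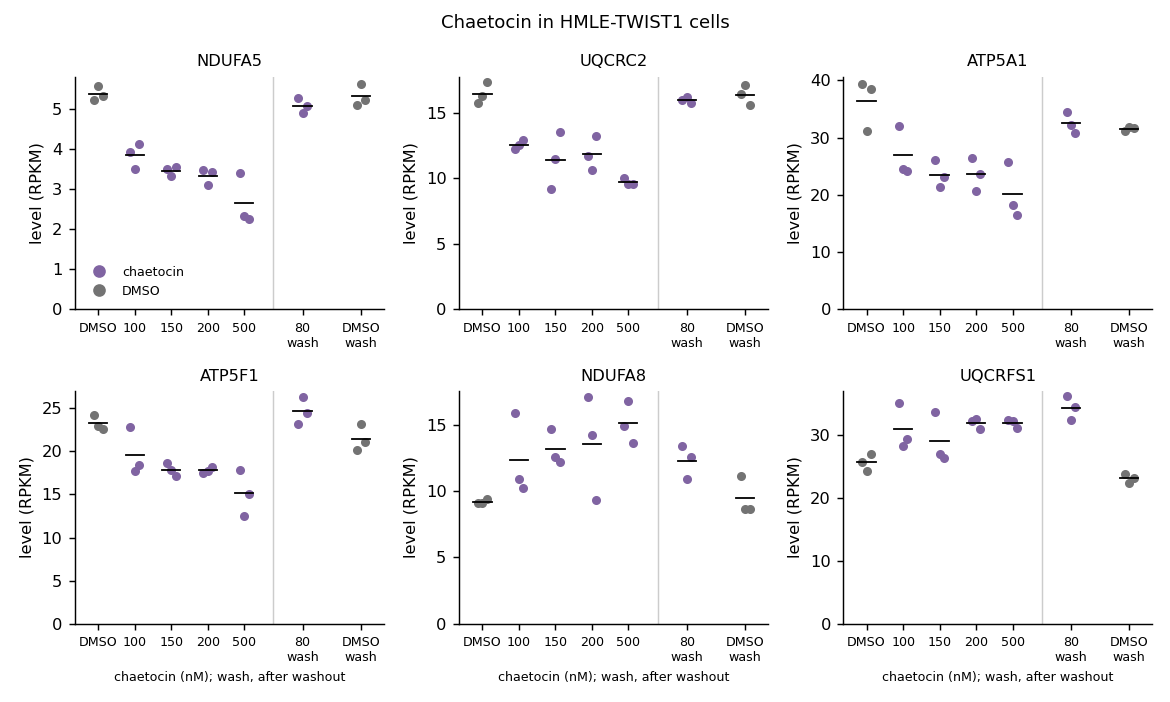
RPKM of 6 genes in HMLE-TWIST1 libraries (points; purple, chaetocin; grey, DMSO; black bar, mean of 3) by dose in nM after 48 h, and right of the grey line after 15 h at 80 nM and 48 h without drug, with its own DMSO control. NDUFA5 and UQCRC2 are below DMSO at each dose, and NDUFA5 is at 4.89 to 5.26 RPKM after washout, against 5.09 to 5.62 RPKM with DMSO.

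After 15 h at 80 nM and 48 h without drug, few members fell, and the share that rose was not above that of all genes. By limma 11 of 73 rose and 2 fell relative to the matched DMSO libraries (18.1% and 17.8% of all genes). The median member differed by 0.06, against -0.01 for the median gene. UQCRFS1 had 36.2, 32.3 and 34.4 RPKM after washout, against 23.8, 22.4 and 23.1 RPKM with DMSO (log2 difference 0.57, SE 0.07, limma adjusted p = 8.1e-06). NDUFB6, of the distal membrane arm of complex I, had 7.34, 6.86 and 7.03 RPKM after washout, against 4.91, 4.27 and 4.97 RPKM with DMSO (0.57, SE 0.15). Neither gene's groups overlapped. The other genes that rose were NDUFB3 (0.42), NDUFS3 (0.35), NDUFA8 (0.38), NDUFB9 (0.45), NDUFS8, COX6B1, COX6C, ATP5J and ATP5B, and those that fell were ATP5G2 (-0.38) and NDUFB11 (-0.41), both with overlapping libraries, the second call being lost under 5 of 14 alternatives.

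Among the genes that were low at 48 h of continuous drug, NDUFA5 and UQCRC2 were near their control after washout. NDUFA5 had 5.26, 4.89 and 5.07 RPKM, against 5.09, 5.62 and 5.23 RPKM with DMSO. UQCRC2 had 16, 16.2 and 15.7 RPKM, against 16.4, 17.1 and 15.6 RPKM with DMSO. Dose, exposure and recovery all differ between these experiments, so the values stand side by side only. Beside them, with 18.1% of all genes higher and 17.8% lower, 32 of 74 mitochondrial ribosomal proteins were higher and 1 lower, 10 of 17 import and outer membrane genes higher and 0 lower, and 6 of 13 complex I assembly factors higher and 0 lower. Relative to library totals, which moved the median gene by 0.10, 21 members were higher and 1 lower. Leaving out 1 library gave 4 calls without DMSO replicate 3, 5 without 80 nM replicate 1, 6 without 80 nM replicate 3 and 8 without DMSO replicate 2, in place of 13.

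The duplexes against SUV39H1 and SUV39H2 lowered both targets. In HMLE-TWIST1 cells at day 2, SUV39H1 had 1.47, 1.44 and 1.29 RPKM with knockdown, against 4.24, 3.49 and 3.55 RPKM with scramble, and SUV39H2 6.09, 6.21 and 4.46 RPKM against 13.1, 12.6 and 12.6 RPKM. At day 4 of that line SUV39H1 had 1.39, 1.36 and 1.33 RPKM with knockdown, against 2.56, 2.7 and 3.14 RPKM with scramble, and SUV39H2 6.89, 6.59 and 7.23 RPKM against 11.1, 12.4 and 12.4 RPKM. None of these groups overlapped. In HMLE cells SUV39H1 had 0.959, 0.782 and 0.539 RPKM with knockdown, against 2.1, 2.13 and 1.53 RPKM with scramble at day 2, and 0.376, 0.418 and 0.824 RPKM against 1.1, 1.27 and 0.669 RPKM at day 4, where 1 library of each group overlapped. SUV39H2 in HMLE cells had 1.57, 2.0 and 1.99 RPKM with knockdown, against 2.68, 2.42 and 2.34 RPKM with scramble at day 2, and 1.27, 1.42 and 1.37 RPKM against 2.16, 1.72 and 1.9 RPKM at day 4.

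A minority of oxidative phosphorylation genes differed between knockdown and scramble. In HMLE-TWIST1 cells 7 members were higher and 1 lower with knockdown at day 2 (7.59% and 7.49% of all genes), and 6 were higher and 15 lower at day 4 (19.7% and 17.8%). In HMLE cells 5 were higher and 5 lower at day 2 (12.5% and 16.3%), and 1 was higher and 8 lower at day 4 (12.3% and 13.4%). The median member differed by 0.05, -0.06, 0.02 and -0.03. Relative to library totals the splits were 10 higher and 0 lower, 7 and 8, and 7 and 3 in the first 3 of these, and the HMLE day 4 split moved by under 10 percentage points.

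NDUFS1, the largest iron-sulfur subunit of complex I, was lower with knockdown at day 4 in both lines. It had 13.2, 14 and 13.7 RPKM with knockdown, against 18.4, 18.8 and 19.2 RPKM with scramble in HMLE-TWIST1 cells (log2 difference -0.47, SE 0.07, limma adjusted p = 1.9e-05). In HMLE cells it had 12.9, 10.9 and 13.5 RPKM with knockdown, against 18.6, 18.9 and 18.8 RPKM with scramble (-0.60, SE 0.07, limma adjusted p = 2.0e-06). Neither line's groups overlapped at day 4. At day 2 NDUFS1 had 14.4, 14.2 and 13.8 RPKM with knockdown, against 15.7, 16 and 16.5 RPKM with scramble in HMLE-TWIST1 cells (-0.19), where the call was lost without scramble replicate 3 or relative to library totals. In HMLE cells at day 2 it had 16.6, 15.9 and 16.8 RPKM, against 17.1, 17.8 and 18 RPKM, and did not pass.

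Other knockdown differences changed with the line and day. NDUFV1 in HMLE-TWIST1 cells at day 4 had 12, 11.2 and 11.7 RPKM with knockdown, against 16.9, 15.3 and 14.8 RPKM with scramble (log2 difference -0.43, SE 0.08), and NDUFS4 had 118, 109 and 103 RPKM against 139, 142 and 143 RPKM (-0.37, SE 0.07). NDUFS4 with knockdown at day 2 of HMLE cells was at 83.7, 89.9 and 78.4 RPKM, against 64.6, 72.7 and 72.2 RPKM with scramble (0.27, SE 0.06), so its direction was not the same across groups. ATP5C1 in HMLE cells at day 2 had 26.8, 27 and 27.7 RPKM with knockdown, against 20.2, 21.7 and 20.8 RPKM with scramble (0.37, SE 0.06, limma adjusted p = 1.2e-04), and at day 4 its groups overlapped, at 13.7, 12.2 and 14.8 RPKM against 14.2, 12.3 and 13.5 RPKM. UQCR10, a small subunit of complex III, was higher with knockdown in HMLE-TWIST1 cells at day 2 (25.7, 20.5 and 29.2 RPKM, against 19.2, 16.8 and 17.6 RPKM; 0.48, SE 0.12) and day 4 (27.8, 20.3 and 19.2 RPKM, against 17, 16.7 and 15.0 RPKM; 0.44, SE 0.13). COX6C was also higher at day 2 of that line, at 90.2, 83.0 and 116 RPKM against 68.3, 73.8 and 64.1 RPKM (0.48, SE 0.10).

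The knockdown effect was tested for a difference between the lines as well. At day 2 it was lower in HMLE-TWIST1 than in HMLE cells for 1 member, ATP5C1 (-0.27, SE 0.08, limma adjusted p = 0.046), and higher for 0, against 4.63% and 7.27% of all genes. That call was lost under 11 of its 20 alternatives, among them precision weights and no filter on low counts. At day 4, 3 were higher and 3 lower (11.8% and 10.5%), and on the deposited log2 RPKM scale 3 and 0. NDUFB2 differed by 0.66 (SE 0.19): it had 4.67, 3.9 and 4.35 RPKM with knockdown, against 4.43, 3.78 and 3.18 RPKM with scramble in HMLE-TWIST1 cells, and 1.69, 1.9 and 1.51 RPKM, against 2.22, 2.6 and 2.25 RPKM in HMLE cells. Cytosolic ribosomal proteins and glycolysis moved with the knockdown of HMLE-TWIST1 cells at day 4, with 0 of 78 higher and 69 lower, and 15 of 21 higher and 2 lower. Of all genes in that comparison, 19.7% were higher and 17.8% lower. Their part in the member counts was not tested.

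The knockdown counts rested on single libraries to some extent. In HMLE-TWIST1 cells the day 2 count of 8 became 4, 3 and 4 without scramble replicate 1, scramble replicate 3 or knockdown replicate 1, and the day 4 count of 21 became 11 or 12 without scramble replicate 1 or 2 or knockdown replicate 2 or 3. In HMLE cells the day 2 count of 10 became 6 without scramble replicate 3 and 5 without knockdown replicate 1, and the day 4 count of 9 became 5 without scramble replicate 1 or 3 and 4 without knockdown replicate 2.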

How the data were processed

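Total RNA (Trizol, then RNeasy columns with DNase) went through RiboGone depletion and a SMARTer Stranded Total RNA kit, per the labels' protocols. Reads were handled with STAR, HTSeq and hg19 (GRCh37), per the submitters' processing notes, which give no versions. The authors deposited log2 RPKM values by gene symbol. The values show that they were made in 3 parts with their own gene lists and offsets: 15 DMSO and 80 nM libraries (21700 genes), 24 duplex libraries (19777) and 12 dose libraries (23098). Inverting the steps gave whole reads for 100% of values (largest distance from a whole number 4.2e-08). A further deposited table of 81 unnamed columns matches no sample by name and was not used.

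The recovered reads were scaled together by a trimmed mean of log ratios over 51 libraries and tested as log2 CPM (prior count 2) in limma 3.58.1 (R 4.3.3, statmod 1.5.0) with intensity trend and robust moderation. Genes needed 10 reads in at least 3 libraries and 15 in all, which 71 to 73 members met. Comparisons of DMSO and washout groups were fitted over all groups of their part, both days together. Duplex comparisons within a day were fitted over the groups of that day, and those between days over all duplex groups. The doses were fitted with the DMSO day 2 groups of both lines, and 500 against 100 nM over the dose groups alone. P-values were adjusted by Benjamini-Hochberg over all genes, and the threshold was 0.05. Levels are RPKM from the same reads. The scripts were tested on simulated data. Libraries of 100 and 500 nM with the same replicate number deviated together (correlations 0.21 to 0.49). The reported fit of that comparison was unblocked, and a fit with replicate number as a block is given beside it. Alternatives are given in the closing section.

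Members and lists were chosen with earlier results of these data known. Of the members, 1 is counted but not reported here by name. Named genes are up to 4 members in each direction with the smallest adjusted p in a comparison, paralog sets, the 2 highest and 2 lowest members of each complex, and the targets, line markers and regulators. MKI67 and CDKN1A, and values of named genes in further groups, were chosen after their values were seen. Knockdown day 4 against day 2 and the day effect between lines were added after seeing the data.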

Additional observations from a re-analysis of the deposited data

Results flagged for a closer look

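The change from day 2 to day 4 was compared between the lines by a test of the difference itself. That difference, HMLE-TWIST1 minus HMLE cells, passed the limma threshold for 10 members with DMSO, 34 with scramble and 26 with knockdown. All but COX6B2 with knockdown were less negative in HMLE-TWIST1 cells.

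The knockdown effect differed between the lines for 1 member at day 2 and 6 at day 4. At day 2 ATP5C1 differed by -0.27 on the log2 scale, HMLE-TWIST1 minus HMLE, a call lost under 11 of 20 alternatives. At day 4 COX6B1 (0.51), NDUFB2 (0.66) and UQCR10 (0.52) were above 0, and ATP5H (-0.47), NDUFS4 (-0.31) and UQCRC1 (-0.47) below. The UQCR10 call was lost under 12 of 20 alternatives and those of ATP5H, NDUFS4 and UQCRC1 under 8 each.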

How the results depend on the processing

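Counts of members past the threshold, both directions joined, stayed within 1.5 times the reported value in 179 of 196 alternatives (scaling by library totals or median of ratios, no filter on low counts, prior count 0.5, precision weights, replicate block, only the groups compared, deposited log2 RPKM), and in 132 of 180 that left out 1 library. Because directions are joined, a reversed split can stay within that limit. By library totals, 0 higher and 2 lower at 100 nM against DMSO became 3 and 0. Between the lines with scramble at day 2, 11 higher and 19 lower became 20 and 10. Among 134 named genes by comparison, 1802 of 1974 alternatives kept the call, 171 lost it and 1 reversed it: UQCRC2, HMLE-TWIST1 against HMLE with scramble at day 4, at 0.14 by library totals. By library totals the counts were 0 at 500 against 100 nM, 22 after washout, 2 for the day 2 knockdown effect between lines, and 34 and 46 for the day effect between lines with DMSO and knockdown. With only the groups compared they were 0 at 500 against 100 nM, 5 and 17 for knockdown at day 2 in HMLE-TWIST1 and HMLE cells, 5 for knockdown at day 4 in HMLE cells, and 23 for scramble day 4 against day 2 in HMLE-TWIST1 cells. On deposited log2 RPKM they were 0 at 500 against 100 nM, 5 for knockdown at day 2 in HMLE-TWIST1 cells and 3 for the day 4 knockdown effect between lines. Without a filter the day 2 knockdown effect between lines gave 0. The cause was not tested.

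With replicate number as a block, 500 against 100 nM gave 22, 100 nM against DMSO 6 and the day 2 knockdown effect between lines 2, and the other counts stayed within 1.5 times. Pairing by number was not seen in those other comparisons, where same-numbered libraries correlated at -0.17 to 0.23.

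Leaving out 1 library gave 20 to 29, 28 to 33, 25 to 27 and 38 to 43 members between the lines (DMSO day 2 and 4, scramble day 2 and 4). It gave 1 to 3, 6 to 11, 8 to 15 and 14 to 25 at 100 to 500 nM, 0 to 5 at 500 against 100 nM and 4 to 14 after washout. For knockdown it gave 3 to 10 and 11 to 18 in HMLE-TWIST1 cells at day 2 and 4, 5 to 11 and 4 to 9 in HMLE cells, and 0 to 5 and 2 to 6 for the difference between lines. For day 4 against day 2 it gave 26 to 35, 44 to 48 and 47 to 52 in HMLE cells and 0 to 0, 6 to 10 and 14 to 21 in HMLE-TWIST1 cells (DMSO, scramble, knockdown), and 4 to 11, 28 to 34 and 20 to 27 for the day effect between lines. With 3 libraries a group and 22351 to 59258 reads on the members per library, differences in the 8 members under 2 RPKM are the least well measured.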
